A study of Mus musculus with 20 samples.

Results

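The Fc gamma receptors Fcgr1, Fcgr2b, Fcgr3 and Fcgr4 and their shared signalling chain Fcer1g were followed in mouse bone marrow-derived macrophages. These 5 genes were chosen by name, among 24342 gene symbols of the count table, and each was read from its RefSeq transcript with the highest total count. The samples were 20 RNA-seq libraries in 6 groups. Marrow of C57BL/6 mice was matured for 7 to 8 days in medium that held 15% L929-conditioned medium, the source of the growth factor M-CSF. All through this time the cultures held either 1 µM SGC0946, an inhibitor of the histone H3 lysine 79 methyltransferase DOT1L, or its solvent DMSO. Each arm was then left unstimulated (the groups DMSO and SGC0946, 4 animals each), stimulated with LPS from Escherichia coli at 10 ng/mL for 3 h (DMSO+LPS and SGC0946+LPS, 3 animals each), or treated with the liver X receptor agonist GW3965 at 2 µM for 17 h (DMSO+GW3965 and SGC0946+GW3965, 3 animals each). The sample sheet gives the same animals in both arms. A limit of the model is that the inhibitor was present during maturation, so every comparison of the arms sets cells that matured differently side by side. The titles of all 3 DMSO+GW3965 libraries and of the first 3 of the 4 DMSO libraries carry the word reanalyzed. Its effect cannot be told apart from that of the inhibitor in the GW3965 comparison of the arms. No library of the SGC0946 arm or with LPS carries the word. It therefore also largely coincides with the DMSO arm in unstimulated cells and with the unstimulated state in the DMSO arm's LPS response. It enters the difference of the LPS responses too, and its part was not tested.

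Fc gamma receptors bind the constant part of IgG and let macrophages take up antibody-coated particles and respond to immune complexes. Fcgr1 (the high-affinity receptor), Fcgr3 and Fcgr4 are activating receptors; they have no signalling motif of their own in the mouse and depend on Fcer1g, whose immunoreceptor tyrosine-based activation motif (ITAM) is phosphorylated by Src-family kinases and then recruits the kinase Syk. Fcgr2b carries an inhibitory motif (ITIM) in its own tail, recruits the lipid phosphatase SHIP1 (Inpp5d) and raises the threshold for activation by the others. In macrophages the balance of activating receptors to Fcgr2b is known to set how strongly IgG is answered.

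Fcgr2b (chr1:170960558-170976071, minus strand), Fcgr4 (chr1:171018926-171029761, plus strand), Fcgr3 (chr1:171051169-171065915, minus strand) and Fcer1g (chr1:171229572-171234349, minus strand) lie near each other on chromosome 1, while Fcgr1 lies on chromosome 3 (chr3:96282909-96293969, minus strand; RefSeq, GRCm38.p6). The 250 bases before the start site of the 3 activating receptors are shown because these receptors share 1 signalling chain but had different fold changes with LPS and with SGC0946. They are taken from RefSeq on GRCm38.p6 and written 5′ to 3′ on the strand of the gene, at chr3:96293970-96294219 for Fcgr1, chr1:171059395-171059644 for Fcgr3 and chr1:171018676-171018925 for Fcgr4. Capitals mark matches to 3 of the motifs searched.
Fcgr1: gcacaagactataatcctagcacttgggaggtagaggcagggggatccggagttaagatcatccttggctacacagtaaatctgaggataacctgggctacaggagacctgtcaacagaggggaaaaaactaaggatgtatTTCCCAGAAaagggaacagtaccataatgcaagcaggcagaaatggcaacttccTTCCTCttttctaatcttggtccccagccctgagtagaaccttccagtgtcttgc
Fcgr3: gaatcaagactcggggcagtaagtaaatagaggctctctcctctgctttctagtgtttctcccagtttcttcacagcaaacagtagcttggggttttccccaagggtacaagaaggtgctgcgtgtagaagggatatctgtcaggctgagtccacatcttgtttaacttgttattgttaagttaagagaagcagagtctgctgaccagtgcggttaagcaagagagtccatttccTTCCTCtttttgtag
Fcgr4: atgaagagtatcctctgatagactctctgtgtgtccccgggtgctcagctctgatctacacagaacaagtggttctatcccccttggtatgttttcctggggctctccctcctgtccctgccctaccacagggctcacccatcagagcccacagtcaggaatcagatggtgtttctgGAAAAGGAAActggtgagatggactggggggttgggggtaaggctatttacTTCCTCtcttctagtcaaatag

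The run TTCCTC in all 3 sequences is a match, on the opposite strand, to GAGGAA, the core bound by the myeloid factor PU.1. It begins at -55 from the start site of Fcgr1, at -15 for Fcgr3 and at -22 for Fcgr4. RefSeq has a second start site of Fcgr3, from which the match lies at -6, and both sites lie inside the gene's span given above, not at its end. The window of 300 bases around the start site of Fcgr2b and that of Fcer1g held no GAGGAA on either strand, and 28.3% of 32851 mouse promoter windows of that length held it. Fcgr1 also held TTCCCAGAA at -109, a match to TTCNNNGAA, the form of an interferon gamma-activated site, which occurred in 8.3% of the windows. Fcgr4 held GAAAAGGAAA at -73, a match to an interferon response element-like form (a pair of GAAA runs 2 bases apart) found in 3.4% of the windows. An NF-kB-like form (GGG and CC, 5 bases apart) had a match in the window of every gene of the 5 but Fcgr1 and in 50.8% of all windows. Its matches overlapped each other in Fcgr2b, Fcgr3 and Fcgr4, and they are left in lower case. TATAAA (13.6% of windows) and CACGTG (7.2%) had no match in any of the 5. Both strands were searched, and a match is a description of the letters, not a binding site.

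Depth was 8.17 M to 13.33 M counts per library over the gene symbols used, with a median of 10.4 M. All 5 genes passed the filter on low counts, among 12013 genes tested. The lowest count of any of the 5 in any library was 679 (Fcgr4). The macrophage label was checked on 10 markers, among them Adgre1, Csf1r, Cd68, Mertk, Itgam, Lyz2 and Cd14: all 10 were measured, and they summed to 12500 to 20700 CPM in each library. CPM are counts scaled to a common library size by the TMM method.

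Per kilobase of transcript, the chain was the most abundant of the 5. In unstimulated DMSO cells Fcer1g stood at 778 ± 53.2 RPKM (reads per kilobase of transcript, scaled to the library total; SD, n = 4), Fcgr3 at 437 ± 5.35, Fcgr2b at 80.7 ± 9.12, Fcgr4 at 55.0 ± 6.19 and Fcgr1 at 48.2 ± 10.3 RPKM. Fcgr4 and Fcgr1 did not differ beyond their spread, since their libraries ran from 45.9 to 59.1 and from 34.9 to 59.3 RPKM. The other neighbours in that order did not overlap. After LPS the order was the same in the DMSO arm, with Fcer1g at 849 ± 22.9, Fcgr3 at 371 ± 8.20, Fcgr2b at 182 ± 9.77, Fcgr4 at 150 ± 6.77 and Fcgr1 at 145 ± 12.0 RPKM (n = 3). Fcgr4 and Fcgr1 overlapped there too. In SGC0946+LPS cells Fcgr4 reached 190 ± 10.6 RPKM, above all 3 values of Fcgr1 (136 ± 14.9), and its range of 178 to 197 RPKM met the lower end of that of Fcgr2b (196 to 250).

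**Figure D1:**
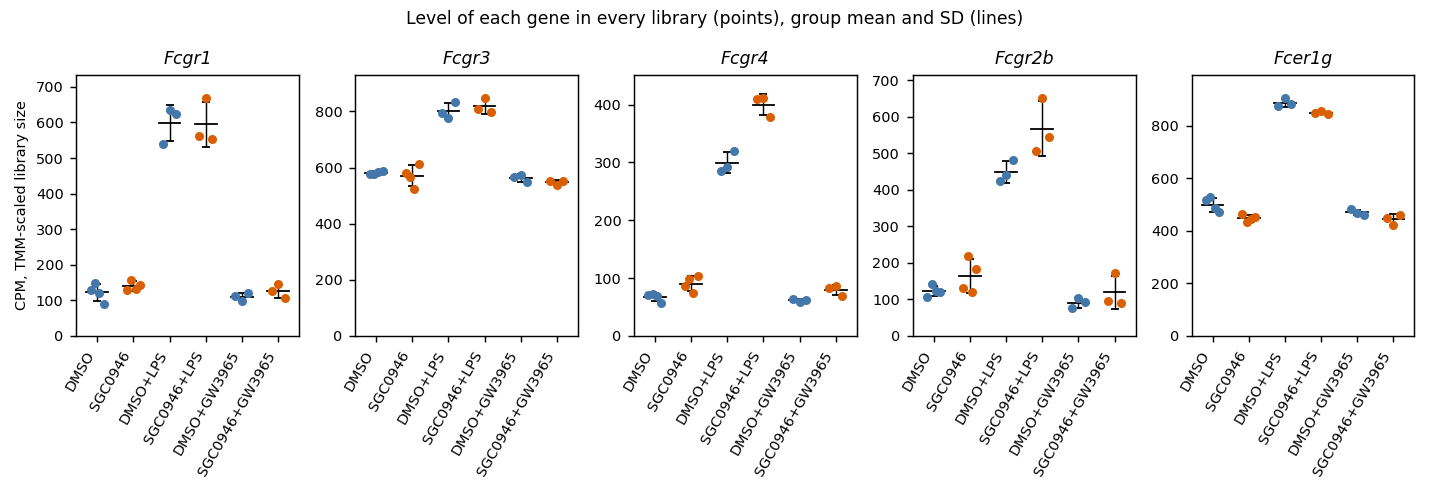
CPM (TMM-scaled) of each gene in every library, by group; blue points are DMSO-arm and orange points SGC0946-arm libraries, and black lines give the group mean and SD (n = 3 or 4). All LPS libraries sit above all unstimulated ones for each of the 5 genes on this scale (for Fcgr3 the order turns with library-total scaling), and the orange points of Fcgr4 sit above the blue ones in each condition.

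Fcgr4 was called higher with SGC0946 in all 3 conditions, by 1.3 to 1.35 times, and it was the only gene of the 5 called in more than 1 condition. Its call under GW3965 was lost under 9 alternatives, given below. Fcer1g was called lower in unstimulated cells, at 0.896 times the DMSO level. Fcgr2b had fitted ratios of 1.26 to 1.34 but varied between animals and did not pass in the main fit, which does not pair the animals. With the arms compared within each animal it passed in unstimulated cells, as given below. Fcgr1 and Fcgr3 did not pass the test in any condition. In unstimulated cells 2 of the 5 genes were called (1 higher, 1 lower), where 8.72% of all genes tested were called. After LPS 1 of 5 was called, against 7.13% of all genes, and under GW3965 1 of 5, against 3.64%. The median log2 change of the 5 was 0.20 in unstimulated cells, 0.03 after LPS and 0.20 under GW3965, beside -0.004, -0.004 and 0.001 for all genes. Calls rest on edgeR's quasi-likelihood test, with p-values adjusted by Benjamini-Hochberg across the 12013 genes and a threshold of 0.05.

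Fcgr4, the activating receptor for IgG2a/c and IgG2b, measured 70.7, 72.1, 69.9 and 57.3 CPM in DMSO replicates 1 to 4, and 86.2, 98.7, 74.7 and 103 CPM in the SGC0946 replicates of the same animals. The groups did not overlap, and animals 2 and 4 had the highest levels with the inhibitor. The log2 change was 0.43 ± 0.09 (SE; adjusted p = 0.00457). After LPS the DMSO libraries stood at 286, 293 and 320 CPM and the SGC0946 libraries at 410, 411 and 379 CPM, a log2 change of 0.42 ± 0.10 (adjusted p = 0.0119). Under GW3965 they stood at 64.6, 58.1 and 61.5 CPM against 82.8, 87.1 and 69.4 CPM, a log2 change of 0.38 ± 0.11 (adjusted p = 0.0495). Groups did not overlap in any of the 3 conditions, and the SGC0946 culture was the higher in 10 of 10 pairs from 1 animal, by 1.07 to 1.80 times. The 3 conditions use cells of the same animals and are not independent repeats. In unstimulated cells the call was lost without replicates 2 and 4 (log2 change 0.20, adjusted p = 0.368), though not when any single library was left out (0.36 to 0.51). After LPS it was lost without DMSO+LPS replicate 1 (0.38, adjusted p = 0.0581) or replicate 2 (0.40, adjusted p = 0.0548), and held without replicates 2 and 4 (0.38, adjusted p = 0.0138). Under GW3965 the call was lost on leaving out any library but SGC0946+GW3965 replicate 3 (adjusted p from 0.0820 to 0.209), without replicates 2 and 4 (0.28, adjusted p = 0.162), in a fit of the compared groups alone (adjusted p = 0.0670), with DESeq2's size factors (adjusted p = 0.0523) and with limma-voom (adjusted p = 0.0576).

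Fcgr2b, the inhibitory receptor, measured 107, 141, 123 and 120 CPM in DMSO replicates 1 to 4 and 132, 220, 120 and 182 CPM with SGC0946. The values of animals 2 and 4 lay above all DMSO libraries and those of animals 1 and 3 within their range. The log2 change was 0.42 ± 0.18 and did not pass (adjusted p = 0.170). With a replicate block, which compares the arms within each animal, it was 0.39 and passed (adjusted p = 0.0330). Without replicates 2 and 4 it was 0.14 (adjusted p = 0.638). After LPS Fcgr2b stood at 423, 440 and 482 CPM in DMSO and 505, 650 and 544 CPM in SGC0946 libraries. These groups did not overlap, but the log2 change of 0.34 ± 0.21 did not pass (adjusted p = 0.374), except in a fit of the compared groups alone (0.35, adjusted p = 0.0431). Under GW3965 the DMSO libraries held 75.7, 104 and 91.6 CPM and the SGC0946 libraries 96.5, 172 and 89.9 CPM. The log2 change of 0.40 ± 0.21 did not pass (adjusted p = 0.368) and was 0.05 without SGC0946+GW3965 replicate 2, the 1 high library. Over the 3 conditions Fcgr2b was higher with SGC0946 in 8 of 10 pairs, and both exceptions were animal 3.

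**Figure D2:**
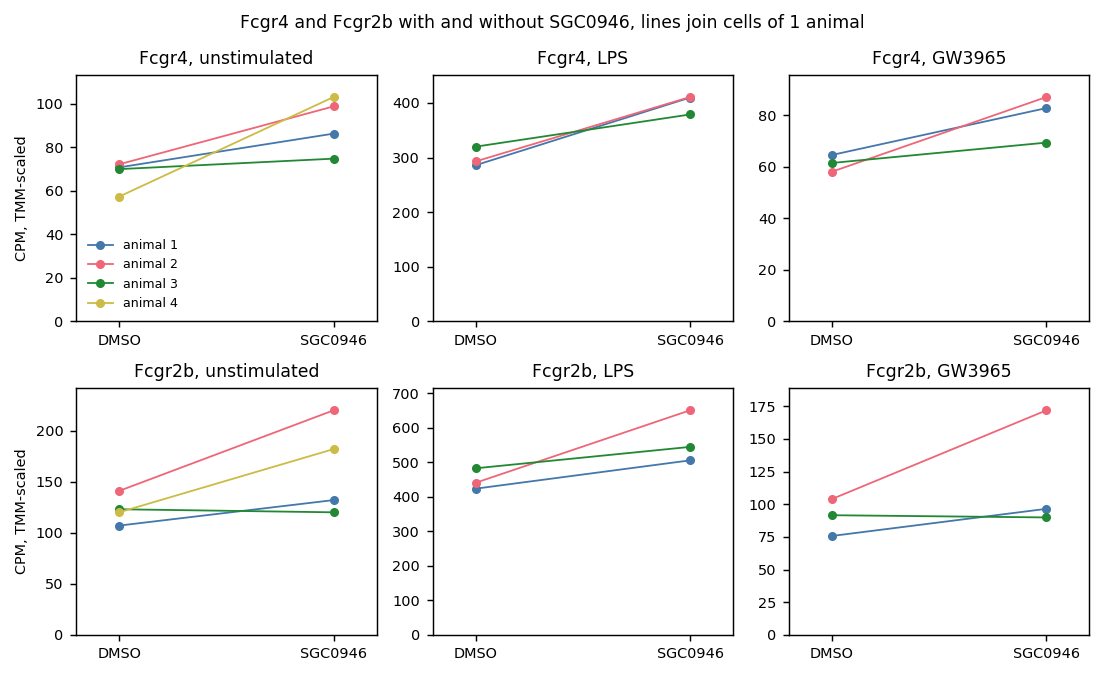
CPM (TMM-scaled) of Fcgr4 (top) and Fcgr2b (bottom) in DMSO and SGC0946 cultures; each line joins the 2 cultures of 1 animal, in unstimulated, LPS and GW3965 cells. Every Fcgr4 line climbs, and the Fcgr2b lines of animal 2 climb most while those of animal 3 are nearly level in unstimulated and GW3965 cells.

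Fcer1g, the chain, measured 517, 527, 486 and 470 CPM in DMSO replicates and 463, 435, 444 and 452 CPM in SGC0946 replicates. All SGC0946 values lay below all DMSO values, and the log2 change was -0.16 ± 0.05 (adjusted p = 0.0387). The call was lost with DESeq2's size factors (-0.15, adjusted p = 0.0593), with library totals (-0.14, adjusted p = 0.0732), without the filter on low counts (-0.17, adjusted p = 0.0842), in a fit of the compared groups alone (-0.15, adjusted p = 0.0789) and without replicates 2 and 4 (-0.14, adjusted p = 0.389). It was also lost on leaving out DMSO replicate 1, 2 or 3 or SGC0946 replicate 2, 3 or 4 (log2 change -0.13 to -0.17). After LPS the DMSO libraries stood at 875, 904 and 882 CPM and the SGC0946 libraries at 847, 854 and 843 CPM. These groups again did not overlap, with a log2 change of -0.06 ± 0.05 (adjusted p = 0.535). Under GW3965 the values of 482, 467 and 460 CPM and of 447, 422 and 461 CPM overlapped (-0.08 ± 0.05, adjusted p = 0.475). The chain was lower with SGC0946 in 9 of 10 pairs.

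Fcgr1, the high-affinity receptor, measured 130, 150, 120 and 90.3 CPM in DMSO replicates and 129, 158, 132 and 144 CPM with SGC0946, and the groups overlapped (log2 change 0.20 ± 0.12, 95% interval -0.04 to 0.44, adjusted p = 0.345). The pair from animal 4 differed most, and its DMSO library was the lowest of the 8. After LPS the change was -0.01 ± 0.14 (interval -0.27 to 0.26, adjusted p = 0.985) and under GW3965 0.20 ± 0.14 (interval -0.07 to 0.48, adjusted p = 0.508). Fcgr3, the low-affinity activating receptor, measured 579, 577, 583 and 589 CPM in DMSO replicates and 581, 565, 523 and 613 CPM with SGC0946. Its intervals were -0.12 to 0.07 in unstimulated cells (adjusted p = 0.782), -0.08 to 0.14 after LPS (adjusted p = 0.838) and -0.15 to 0.07 under GW3965 (adjusted p = 0.805), all in log2 units. These bounds lie below the change measured for Fcgr4 in each condition. They cover the spread between libraries and not the uncertain counting of reads shared with Fcgr2b, given below.

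**Figure D3:**
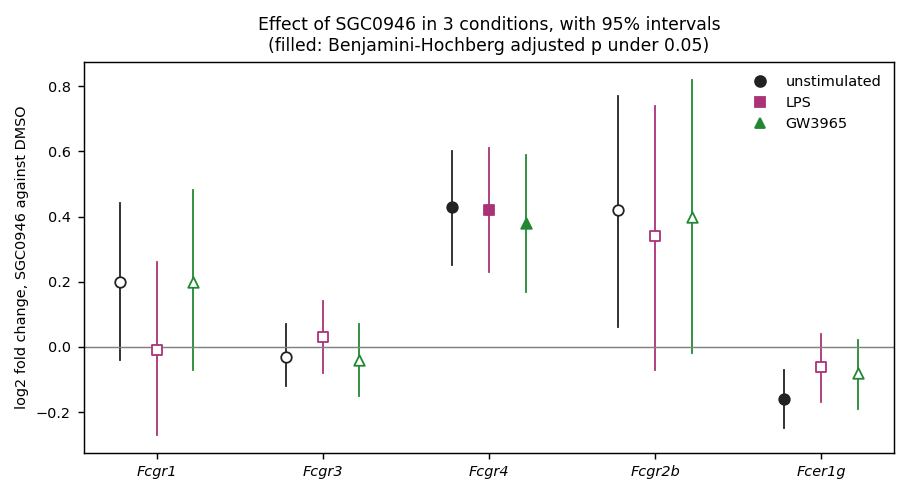
Log2 fold change of SGC0946 against DMSO for each gene in unstimulated (circles), LPS (squares) and GW3965 (triangles) cells, with 95% intervals; filled symbols passed the test. Fcgr4 lies at 0.38 to 0.43 and is filled in all 3 conditions, Fcgr2b lies at 0.34 to 0.42 with wide intervals, and Fcgr3 lies within 0.04 of 0.

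In bulk RNA, a change in the number of cells of a type and a change in RNA per cell cannot be told apart. Summed neutrophil markers were lower and summed dendritic cell markers mostly higher with the inhibitor, but each sum rested on few genes. Among the dendritic cell markers Itgax ran from 8.46 to 37.2 CPM over the 20 libraries, and no other exceeded 4.09 CPM. Among the neutrophil markers Mmp8 ran from 15.4 to 40.0 CPM, and no other exceeded 19.4 CPM. Neutrophil markers (11 in the table, 5 tested) summed to 60.1 to 73.9 CPM in DMSO libraries against 31.8 to 40.7 CPM with SGC0946, where 3 were at 0, and were lower after LPS (68.5 to 86.5 against 36.1 to 39.3) and under GW3965 (43.0 to 60.2 against 18.2 to 23 CPM), with 4 of 5 tested genes called lower in each condition. Of all genes 4.18%, 3.26% and 1.40% were called lower in unstimulated, LPS and GW3965 cells. Dendritic cell markers (8 in the table, 4 tested) summed to 12.9 to 19.9 CPM in DMSO libraries against 23.4 to 33.9 CPM with SGC0946. There 2 of 4 were called higher, beside 4.55% of all genes. After LPS they summed to 17.4 to 28.5 CPM against 31.8 to 44.1 CPM and under GW3965 to 11.2 to 19.4 against 18.6 to 23.6 CPM, with none called. NK and T cell markers (11 in the table, 2 tested) stood at 7.16 to 8.78 and 7.38 to 8.68 CPM unstimulated. After LPS they stood at 15.0 to 24.1 and 33.1 to 35.9 CPM. There 1 of the 2 tested was called higher with SGC0946, beside 3.86% of all genes. B cell markers (7 in the table, 1 tested) stood at 4.05 to 5.44 and 4.34 to 6.42 CPM unstimulated. Mast cell and basophil markers (10 in the table, 2 tested) stood at 9.82 to 12.6 and 11.5 to 24.2 CPM unstimulated, with 6 and 4 of the 10 at 0. Under GW3965 1 of the 2 tested was called higher with SGC0946, beside 2.24% of all genes. Of the 10 macrophage markers 1 was called higher and 1 lower in unstimulated cells. Fcer1a, the alpha chain with which Fcer1g forms the mast cell IgE receptor, was at 0 CPM in all 20 libraries. The part of these lists in the changes of Fcgr4, Fcgr2b and Fcer1g was not tested.

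LPS raised all 5 genes within 3 h in the DMSO arm, by 1.38 to 4.88 times, on the scale that TMM sets. Background was high: 74.1% of all genes tested were called in this comparison, 35.4% higher and 38.7% lower, so that being called sets no gene apart. The size did differ among the 5, with the log2 change above 1.8 for Fcgr1, Fcgr4 and Fcgr2b and below 1 for Fcer1g and Fcgr3. The scaling matters here, since LPS changed the RNA make-up so much that TMM and library totals put the median of all genes at -0.069 and -0.796 (log2). Of the genes called, 47.8% were higher with TMM and 18.6% with library totals. The 5 genes were higher than that median. A change of scaling moves all genes and their median by nearly the same amount, so the other scaling is no separate check of this.

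Fcgr1 rose from the unstimulated values above to 540, 634 and 623 CPM in DMSO+LPS libraries, a log2 change of 2.29 ± 0.13 (4.88 times, adjusted p = 4.9e-13), and the lowest LPS library stood above the highest unstimulated one. Fcgr4 rose by 2.15 ± 0.10 (4.43 times, adjusted p = 6.07e-15) and Fcgr2b by 1.87 ± 0.19 (3.65 times, adjusted p = 1.69e-08). So the high-affinity receptor, the IgG2 receptor and the inhibitory receptor all increased several-fold. With library totals their log2 changes were 1.56, 1.42 and 1.14, all still called. Fcer1g rose by 0.83 ± 0.05 (1.77 times, adjusted p = 1.78e-12), but with library totals its change was 0.10 and did not pass (adjusted p = 0.0825). Fcgr3 measured 794, 777 and 835 CPM after LPS and rose by 0.46 ± 0.05 (1.38 times, adjusted p = 5.96e-08) with TMM, while with library totals it fell, by 0.27 (adjusted p = 3.96e-05). The deposited RPKM, which follow library totals, show that second direction (437 ± 5.35 unstimulated, 371 ± 8.20 after LPS).

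In the SGC0946 arm 74.6% of all genes were called after LPS, 35.8% higher and 38.8% lower (47.9% of calls higher with TMM and 18.5% with library totals), and all 5 genes were again called higher with TMM. Fcgr1 changed by 2.08 ± 0.13, Fcgr4 by 2.14 ± 0.09, Fcgr2b by 1.79 ± 0.19, Fcer1g by 0.92 ± 0.05 and Fcgr3 by 0.52 ± 0.05 on the log2 scale, with Fcgr3 at -0.22 (adjusted p = 0.000313) under library totals. The median log2 change of the 5 was 1.87 in the DMSO arm and 1.79 in the SGC0946 arm, beside -0.069 and -0.068 for all genes. The 2 arms come from the same animals.

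**Figure D4:**
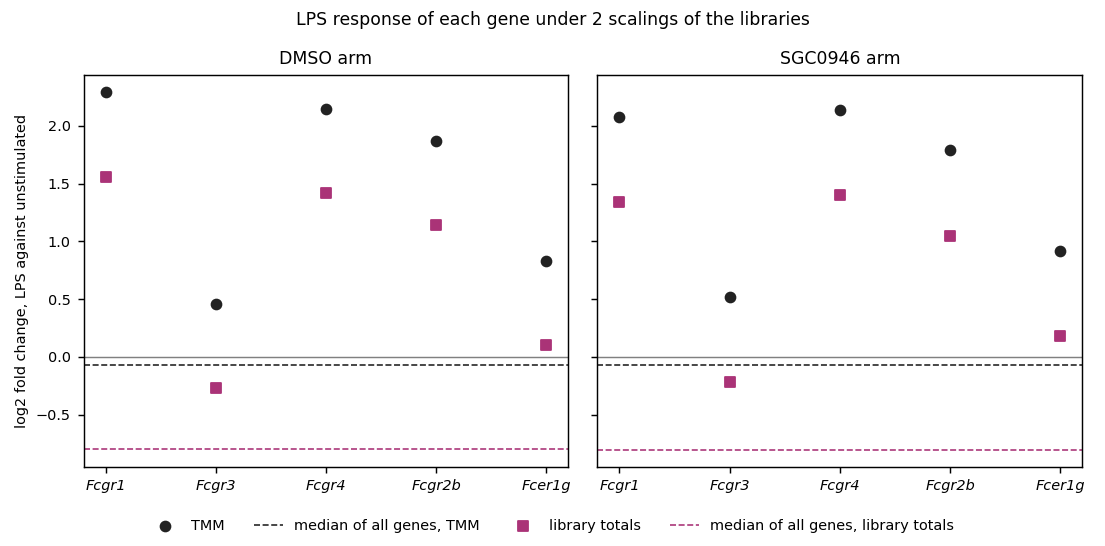
Log2 fold change of each gene after LPS in the DMSO arm (left) and the SGC0946 arm (right), with TMM (black circles) and with library totals (purple squares); dashed lines give the median of all genes tested under each scaling. All 5 genes lie above their dashed line, which shifts along with them when the scaling changes. Fcgr3 lies above 0 with TMM and below 0 with library totals.

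GW3965, which activates the liver X receptors that govern cholesterol efflux genes, called none of the 5 genes in either arm, where 2.55% of all genes were called in the DMSO arm and 2.42% in the SGC0946 arm. Fcgr2b had the largest change, from 107 to 141 CPM in unstimulated DMSO libraries to 75.7 to 104 CPM with GW3965. These ranges did not overlap, but the log2 change of -0.44 ± 0.20 did not pass (adjusted p = 0.276). It did pass without replicates 2 and 4 (-0.46, adjusted p = 0.0194) and in a fit of the compared groups alone (-0.44, adjusted p = 0.0140). In the SGC0946 arm the change of Fcgr2b was -0.45 ± 0.20 (adjusted p = 0.307). It passed without replicates 2 and 4 (-0.43, adjusted p = 0.0350) and without SGC0946+GW3965 replicate 2 (-0.81, adjusted p = 0.0144). In the DMSO arm the other 4 changed by -0.16 ± 0.13 (Fcgr1), -0.14 ± 0.10 (Fcgr4), -0.09 ± 0.05 (Fcer1g) and -0.05 ± 0.05 (Fcgr3). The median of the 5 was -0.14 in the DMSO arm and -0.15 in the SGC0946 arm, beside -0.005 and -0.003 for all genes.

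Whether SGC0946 altered the response to LPS was tested as the difference of the 2 responses. None of the 5 genes was called, and over all genes 1 was called, which is 0.00832% (835 at an unadjusted p under 0.05, and 34 by DESeq2). The difference was -0.21 ± 0.18 for Fcgr1 (95% interval -0.56 to 0.15), 0.06 ± 0.07 for Fcgr3 (-0.09 to 0.20), -0.01 ± 0.13 for Fcgr4 (-0.27 to 0.25), -0.08 ± 0.27 for Fcgr2b (-0.62 to 0.46) and 0.09 ± 0.07 for Fcer1g (-0.05 to 0.23), all in log2 units. The fitted ratio of the arms for Fcgr4 was 1.35 in unstimulated and 1.34 in LPS cells. For the response to GW3965 no gene of the 5 and no gene at all was called by edgeR (0% of those tested, with 291 at an unadjusted p under 0.05 and 0 by DESeq2). The interval of that difference was -0.32 to 0.22 for Fcgr4, -0.56 to 0.54 for Fcgr2b and -0.36 to 0.37 for Fcgr1.

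As shares of the summed RPKM of the 4 receptors, which do not depend on how libraries are scaled, Fcgr3 made up 70.4% ± 2.5 of receptor RNA in DMSO cells (SD, n = 4), Fcgr2b 13.0% ± 1.19, Fcgr4 8.83% ± 0.752 and Fcgr1 7.72% ± 1.39. After LPS the make-up was more even: Fcgr3 held 43.8% ± 1.23, Fcgr2b 21.4% ± 0.416, Fcgr4 17.7% ± 0.208 and Fcgr1 17.0% ± 1.17 (n = 3). In SGC0946 cells Fcgr4 held 11.1% ± 0.520, with every library (10.4% to 11.6%) above every DMSO library (7.72% to 9.37%). After LPS it held 21.1% ± 1.08, again without overlap. Shares move together by construction, so a higher share of 1 receptor lowers the others. They were described and not tested.

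The summed RPKM of the activating receptors was 6.75 ± 0.732 times that of Fcgr2b in DMSO and 5.43 ± 1.21 times in SGC0946 cells, and the libraries ran from 5.94 to 7.72 and from 3.90 to 6.41. After LPS the ratio was lower, at 3.67 ± 0.0874 in DMSO+LPS and 3.17 ± 0.311 in SGC0946+LPS libraries, with no LPS library as high as any unstimulated one of its arm. Under GW3965 it was 8.82 ± 1.53 and 7.25 ± 2.22. The RPKM of Fcgr4 was 0.686 ± 0.0991 times that of Fcgr2b in DMSO and 0.707 ± 0.112 times in SGC0946 cells, and these ranges overlapped. The chain stood at 1.44 ± 0.0523 times the summed activating receptors in DMSO and 1.25 ± 0.0888 times in SGC0946 cells, with library ranges of 1.39 to 1.49 and 1.17 to 1.36 that did not overlap. After LPS the same ratio was 1.28 ± 0.0577 and 1.12 ± 0.0404, again without overlap (1.21 to 1.31 against 1.08 to 1.16). Under GW3965 it was 1.41 ± 0.0173 and 1.31 ± 0.0802.

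**Figure D5:**
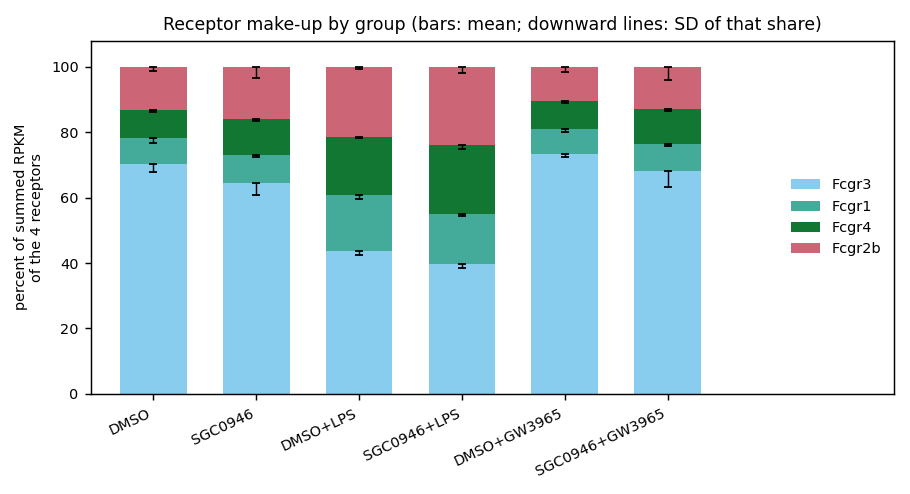
Mean percent of the summed RPKM of the 4 receptors held by each receptor, by group, stacked to 100; the line at the top of each block runs down by 1 SD of that share (n = 3 or 4). Fcgr3 falls from 70.4% in DMSO to 43.8% in DMSO+LPS cells, and Fcgr4 is larger in the SGC0946 bar than in the DMSO bar of each condition.

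Other Fc receptors were mostly absent or not called for the inhibitor. Of 14 listed, 6 passed the filter. None was called for SGC0946 in unstimulated, LPS or GW3965 cells, beside 8.72%, 7.13% and 3.64% of all genes. Their median log2 change in unstimulated cells was 0.18. Fcgrt, the neonatal Fc receptor that recycles IgG, held 105 ± 1.59 CPM without and 117 ± 31.2 CPM with SGC0946 (log2 change 0.16 ± 0.18, adjusted p = 0.633). Trim21, the cytosolic antibody receptor, held 38.0 ± 7.62 and 37.5 ± 3.25 CPM (-0.02 ± 0.10, adjusted p = 0.922) and rose to 622 ± 7.87 CPM with LPS in DMSO cells (4.03 ± 0.10, adjusted p = 3.62e-19). After LPS in DMSO cells 2 of the 6 were called higher and 2 lower, beside 35.4% and 38.7% of all genes. Fcrlb rose (3.44 ± 0.53) but stayed at 1.36 ± 0.258 CPM, and Fcrl1 (-1.43 ± 0.13) and Fcrla (-2.26 ± 0.77) were lower. Receptors of IgE and of other classes that did not pass (Ms4a2, Fcer2a, Fcamr, Fcmr and Pigr) stayed at or below 0.451 CPM in every library.

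Among ITAM adaptors and the receptors that pair with them, 11 of 14 were tested, and SGC0946 lowered 2 in unstimulated cells, none after LPS and 1 under GW3965, beside 4.18%, 3.26% and 1.40% of all genes. Clec4d, a C-type lectin receptor that signals through Fcer1g, was lower at 184 ± 18.8 against 241 ± 19.7 CPM in unstimulated cells (-0.39 ± 0.08, adjusted p = 0.00508) and under GW3965 (-0.50 ± 0.10, adjusted p = 0.00446). Trem2, which pairs with Tyrobp, was lower in unstimulated cells (-0.20 ± 0.06, adjusted p = 0.0308), a call lost on leaving out any 1 of the 8 unstimulated libraries or replicates 2 and 4 (-0.26, adjusted p = 0.0759). Tyrobp itself, the ITAM adaptor closest in role to Fcer1g, changed by -0.02 ± 0.07 (adjusted p = 0.914). The list's median was -0.05.

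Of 30 kinases and activating signal genes downstream of the receptors, SGC0946 raised 2 and lowered 1 in unstimulated cells, with a median of -0.03, beside 8.72% of all genes called. Src, a Src-family kinase, had the largest change, from 4.94 ± 0.801 to 8.96 ± 1.36 CPM (0.88 ± 0.14, adjusted p = 0.000293), and Gab2, a scaffold adaptor, was higher (0.17 ± 0.05, adjusted p = 0.0311). Fyn, another Src-family kinase, was lower (-0.25 ± 0.07, adjusted p = 0.0269). Without replicates 2 and 4 the Gab2 and Fyn calls were lost (0.04, adjusted p = 0.867, and -0.13, adjusted p = 0.601) and the Src call held (0.62, adjusted p = 0.0339). Syk (0.07 ± 0.05, adjusted p = 0.401) and Lyn (-0.03 ± 0.07, adjusted p = 0.849), the kinases next to the ITAM, did not pass. After LPS only Vav2, a guanine nucleotide exchange factor, was called (-0.41 ± 0.10, adjusted p = 0.0142), and under GW3965 none of the 30. Of all genes 7.13% and 3.64% were called there. The Vav2 call was lost under 4 of 15 alternatives, among them leaving out replicate 3 of either arm.

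None of 19 inhibitory signal genes tested was called for SGC0946 in unstimulated, LPS or GW3965 cells, beside 8.72%, 7.13% and 3.64% of all genes. Their medians ran from -0.08 to -0.02. Inpp5d, the SHIP1 phosphatase recruited by Fcgr2b, changed by -0.05 ± 0.07 (adjusted p = 0.739) and Ptpn6, the SHP-1 phosphatase, by -0.13 ± 0.07 (adjusted p = 0.289) in unstimulated cells. With a replicate block 1 of the 19 was called in each condition. The shares of all genes above are those of the main fit, and the block called more genes under GW3965, as given below.

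Of 25 genes of the phagocytic cup and actin machinery, SGC0946 lowered 5 and raised none in unstimulated cells (median -0.06), lowered 2 after LPS and 1 under GW3965, where 4.18%, 3.26% and 1.40% of all genes were called lower. Gsn (gelsolin, which severs actin filaments) was lower in all 3 conditions: 377 ± 33.0 against 478 ± 3.91 CPM in unstimulated cells (-0.34 ± 0.07, adjusted p = 0.00353), and by -0.30 ± 0.08 after LPS (adjusted p = 0.0247) and -0.30 ± 0.08 under GW3965 (adjusted p = 0.0379). Arpc1b, a subunit of the actin-nucleating Arp2/3 complex, was lower in unstimulated cells (-0.26 ± 0.05, adjusted p = 0.00423) and after LPS (-0.21 ± 0.06, adjusted p = 0.0443). Elmo1, part of an exchange factor for Rac (-0.34 ± 0.10, adjusted p = 0.0317), and Limk1, a cofilin kinase (-0.25 ± 0.08, adjusted p = 0.0463), were lower in unstimulated cells. Without replicates 2 and 4 none of the 25 was called in unstimulated cells. Gsn then held after LPS (-0.27, adjusted p = 0.0274) and was lost under GW3965 (-0.19, adjusted p = 0.206), and Arpc1b was lost after LPS (-0.24, adjusted p = 0.114). Over all alternatives run, the unstimulated call was lost in 13 of 17 for Limk1, 7 of 17 for Elmo1 and 1 of 17 for Gsn and for Arpc1b. The calls of Arpc1b after LPS and of Gsn under GW3965 were each lost in 8 of 15, and that of Gsn after LPS in 5 of 15. Of 5 NADPH oxidase genes, Ncf4 (p40phox) was higher in unstimulated cells (0.23 ± 0.07, adjusted p = 0.0475) and under GW3965 (0.31 ± 0.08, adjusted p = 0.0432), and the other 4 were not called. Of all genes 4.55% and 2.24% were called higher there. None of the 5 was called after LPS. Without replicates 2 and 4 Ncf4 was not called in unstimulated cells (0.25, adjusted p = 0.102) and held under GW3965 (0.33, adjusted p = 0.026). Over all alternatives run, its call was lost in 7 of 17 in unstimulated cells and in 6 of 15 under GW3965.

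In the DMSO arm LPS called 74.1% of all genes, 35.4% higher and 38.7% lower, with a median of -0.069. With library totals 1980 of the 12013 genes were called higher and 8674 lower, with a median of -0.796. Of the 30 kinases and activating genes 22 were called higher and 6 lower (median 0.74), and with library totals 14 higher and 14 lower (median 0.01). Src (5.72 ± 0.11), the signalling scaffold Malt1 (4.97 ± 0.09) and the adaptor SLP-76 (Lcp2, 3.48 ± 0.07) rose most. Lyn rose by 2.09 ± 0.07 and Syk by 1.53 ± 0.05, while Tec (-1.78 ± 0.07), Pik3cg (-1.56 ± 0.08), Vav2 (-1.54 ± 0.08) and Plcg1 (-1.42 ± 0.14) fell. Of the 19 inhibitory genes 7 were higher and 9 lower (median -0.05), and with library totals 4 and 12 (median -0.78). Inpp5d fell from 300 ± 6.37 to 60.6 ± 7.09 CPM (-2.31 ± 0.09, adjusted p = 7.73e-16) while Fcgr2b, which recruits its product, rose. The ubiquitin ligase Cblb (-2.22 ± 0.06), the adaptor Pag1 (-1.86 ± 0.10) and the receptor Cd300a (-1.80 ± 0.09) fell too. Ptpn6 (0.81 ± 0.08) and the phosphatase Ubash3b (2.00 ± 0.11) rose, as did the ITIM receptors Lilrb4a (1.73 ± 0.12), Siglece (1.61 ± 0.29) and Pirb (0.87 ± 0.07).

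In the same comparison 18 of 25 phagocytic genes were called higher and 6 lower (median 0.39). With library totals 3 were higher and 16 lower (median -0.34), where the median of all genes was -0.796. The list's median changed sign with the scaling but lay above that of all genes under both scalings. Vasp (2.60 ± 0.08), Myo1g (1.91 ± 0.06) and Actr2 (1.11 ± 0.06) were higher and Limk1 (-1.37 ± 0.09), Wipf1 (-1.23 ± 0.05), Myo1f (-0.79 ± 0.05) and Pak1 (-0.56 ± 0.06) lower. Of 5 NADPH oxidase genes 4 were higher (median 0.86), and with library totals 2 higher and 2 lower. Cybb (gp91phox) rose by 2.10 ± 0.06, Ncf4 by 0.95 ± 0.08, Ncf1 by 0.86 ± 0.07 and Cyba by 0.45 ± 0.06, the last of which was -0.28 with library totals. Of 11 ITAM genes 4 were higher and 3 lower (3 and 7 with library totals). The lectin receptors Clec4e (6.06 ± 0.11), Clec5a (2.02 ± 0.09) and Clec4d (1.53 ± 0.09) rose, Pira2 rose by 0.23 ± 0.07 (-0.50 with library totals), and Cd300lb fell from 215 ± 6.43 to 4.40 ± 0.762 CPM (-5.59 ± 0.11). Tyrobp changed by 0.10 ± 0.08 (adjusted p = 0.258), whereas Fcer1g, the other ITAM adaptor, was among the genes called.

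GW3965 called 3 genes of these lists in the DMSO arm, where 2.55% of all genes were called. Pik3cb (0.64 ± 0.07, adjusted p = 1.53e-05) and Pik3cd (0.39 ± 0.07, adjusted p = 0.00454), both catalytic subunits of phosphoinositide 3-kinases, were higher and Coro1a, an actin-binding protein, was lower (-0.29 ± 0.08, adjusted p = 0.0448). In the SGC0946 arm, where 2.42% of all genes were called, Pik3cb (0.62 ± 0.07), Pik3cd (0.42 ± 0.07) and Skap2 (0.19 ± 0.05) were higher and Clec4e lower (-0.45 ± 0.10, adjusted p = 0.0159).

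Within 200 kb of Fcgr2b, Fcgr4, Fcgr3 or Fcer1g on chromosome 1 RefSeq lists 65 other genes, of which 25 were tested. In unstimulated cells 1 was called higher (Nit1, 0.28 ± 0.08) and 1 lower (Pcp4l1, -0.36 ± 0.10), which makes 2 of 25 beside 8.72% of all genes, with a median of 0.04. None was called after LPS or under GW3965, beside 7.13% and 3.64% of all genes. After LPS in DMSO cells 12 were higher and 7 lower (median 0.08), beside 35.4% and 38.7% of all genes (median -0.069). Those higher were led by Adamts4 (8.93 ± 0.17), Fcrlb (3.44 ± 0.53), Nectin4 (1.91 ± 0.12) and B4galt3 (1.48 ± 0.10). Around Fcgr1 on chromosome 3, 6 of 58 genes were tested. None was called for SGC0946 in unstimulated, LPS or GW3965 cells, beside 8.72%, 7.13% and 3.64% of all genes.

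The genes whose pattern over the 20 libraries came closest were found by the root mean square difference of log2 CPM after centring, among the 12013 genes tested. For Fcgr4 they were Tent5a (0.127), the costimulatory ligand Cd86 (0.130) and Ttc39b (0.141), and Fcgr1 was ranked 9 (0.180). For Fcgr1 they were Frmd4a (0.116), the peptide transporter subunit Tap2 (0.143) and Epsti1 (0.146). For Fcgr3 they included Csnk1d (0.053) and Stx7 (0.054), and for Fcer1g Med10 (0.056), Tpm3 (0.069) and Rab5c (0.069). Fcgr2b had no neighbour as near: Nectin4 (0.238), Kctd12 (0.242) and Igsf6 (0.246), with Fcgr4 ranked 5 (0.258). Cd86 and Ttc39b were called higher with SGC0946 after LPS (0.50 ± 0.10 and 0.50 ± 0.11) and in unstimulated cells (0.36 ± 0.10 and 0.46 ± 0.11), but not under GW3965 (adjusted p = 0.0910 and 0.120). Tent5a was called after LPS and under GW3965 (0.39 ± 0.09 and 0.39 ± 0.10) but not in unstimulated cells (0.23 ± 0.08, adjusted p = 0.0921). They were picked for likeness over the same libraries, so these values are a description.

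Fcgr2b was deposited as 2 transcripts, which differ by a cassette exon (chr1:170963325-170963465, 141 bases, minus strand; GENCODE on GRCm38) that lengthens the cytoplasmic tail and is known to be skipped in the form of macrophages. The longer transcript, used here, held 893 to 5401 counts. The shorter one had a lower count in each library, by 2.56% ± 0.496 of the longer one's count in DMSO, 2.99% ± 0.199 in SGC0946, 4.31% ± 0.484 in DMSO+LPS and 3.32% ± 0.339 in SGC0946+LPS cells. Under GW3965 the values were 2.99% ± 0.526 and 3.04% ± 0.858. The GENCODE models also differ at the 3′ end, and how the counting treated shared reads is not given in the sources used here, so these differences cannot be assigned to the exon. Reads of 50 bases cannot always be placed: 12.79% of the 50-base windows of the Fcgr3 transcript also occur in Fcgr2b, while none of those of Fcgr1, Fcgr4 or Fcer1g occurs in another gene. Of the Fcgr2b windows 12.47% occur in another gene, 166 of 436 of them in Fcgr3. The windows are those of the GENCODE models, and that of Fcgr2b (3544 bases) reaches beyond the RefSeq span of the gene given above. Counts of Fcgr3 and Fcgr2b are uncertain for this reason. As the counting of shared reads is not known, the shares of windows do not bound that uncertainty. No exon of the 5 overlapped another gene.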

How the data were processed

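RNA of 20 macrophage cultures was made into KAPA mRNA HyperPrep libraries from 700 ng RNA and read as 50-base single ends, per the labels' protocols. The submitters' processing notes name STAR 2.5.2b, SAMtools 1.3.1 and the genome mm10; these sources do not name the counting program, the annotation or the strand setting. The authors deposited raw read counts per RefSeq transcript, and deposited RPKM per transcript, which equal those counts per kilobase, scaled to the library total (780 transcripts checked, largest deviation 0.0031%). Of 35745 transcripts, 305 (1.166% of counts) had no gene name and were not tested.

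Each of 24342 symbols was read from its transcript with the highest total count, and 6035 symbols had more than 1. These counts, 57.3% of all, were 8.17 M to 13.33 M per library. Genes passing edgeR's filterByExpr (minimum count 10) were fitted together over all 20 libraries and 6 groups with edgeR 4.0.16 in R 4.3.3 (TMM factors, quasi-likelihood F test), giving 9 comparisons. P-values were adjusted by Benjamini-Hochberg over the 12013 genes, and a gene was called under 0.05. Counts were also analysed with DESeq2 1.42.0 and limma-voom (limma 3.58.1), other scalings, no filter, a replicate block, the compared groups alone, another transcript per symbol, and without single libraries or replicates 2 and 4. The fit was tested on simulated data.

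The 5 genes, the gene lists and the marker lists were chosen with earlier results of these data known. The 5 genes are named throughout; from each other list up to 4 called genes per direction with the largest change are named, with Fcgrt, Trim21, Tyrobp, Syk, Lyn, Inpp5d and Ptpn6 always, called neighbours within 200 kb, and the 3 genes most like each of the 5. A few genes that this rule names are not reported here. The deposited sample sheet gives the animal of each library, so equal replicate numbers are the same animal; deviations from the group means of same-numbered libraries correlated at 0.06 to 0.50. The main fit has no block. The series' design text calls the samples biological replicates. Counting error was tested between replicates, and no pair agreed within sampling noise (chi-square per gene 3.09 to 14.4).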

Additional observations from a re-analysis of the deposited data

Results flagged for a closer look

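The Fcgr4 level of the DMSO replicate 4 library, 57.3 CPM, lay apart from the other 3 DMSO libraries, which stood at 69.9 to 72.1 CPM. Of these 4 libraries it is also the 1 without the word reanalyzed in its title, and the part of that in its level was not tested. Chance alone sets apart about 1 in 20 groups of this kind. Without that library the Fcgr4 difference of SGC0946 from DMSO was 0.36 on the log2 scale and was still called (adjusted p = 0.0235 in edgeR's quasi-likelihood test).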

How the results depend on the processing

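The numbers of genes called were within 1.5 times of those reported except as follows. For SGC0946 in unstimulated cells 235 genes were called without replicates 2 and 4 and 578 to 1099 on leaving out 1 library, and after LPS 529 and 432 to 796. Under GW3965 the numbers were 703 with the replicate block, 250 without replicates 2 and 4, 164 in a fit of the compared groups alone and 232 to 454 without 1 library. For the GW3965 response in the DMSO arm they were 531 with the replicate block, 888 in a fit of the compared groups alone, 515 with DESeq2 and 122 to 343 without 1 library, and in the SGC0946 arm 178 without replicates 2 and 4, 88 in a fit of the compared groups alone and 134 to 485 without 1 library. For the difference of LPS responses they were 11 with no filter on low counts, 6 with the replicate block, 34 with DESeq2 and 1 to 11 without 1 library.

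Among the 5 genes, library totals turned the LPS change of Fcgr3 to -0.27 (DMSO arm) and -0.22 (SGC0946 arm), and among the other genes named those of Cyba to -0.28 and -0.30 and of Pira2 to -0.50 and -0.53. The other changes of sign were of values near 0 that were not called. Without replicates 2 and 4 they were -0.024 for Fcgr3 with SGC0946 after LPS, 0.0039 for Fcgr3 and 0.0041 for Fcer1g with GW3965 in the SGC0946 arm, 0.18 for Fcgr4 and 0.073 for Fcgr2b in the difference of LPS responses, and 0.062 for Fcgr3, 0.077 for Fcgr4, 0.025 for Fcgr2b and -0.056 for Fcgr1 in the difference of GW3965 responses. That last value was -0.0051 with library totals, -0.0255 with the replicate block and -0.019 with limma-voom. On leaving out 1 library the ranges that crossed 0 were -0.065 to 0.011 for Fcgr3 with SGC0946 in unstimulated cells, -0.10 to 0.037 for Fcgr1 with SGC0946 after LPS, -0.045 to 0.0197 for Fcer1g with GW3965 in the SGC0946 arm, -0.089 to 0.063 for Fcgr4 and -0.20 to 0.10 for Fcgr2b in the difference of LPS responses, and -0.11 to 0.13 for Fcgr1, -0.0495 to 0.026 for Fcgr3, -0.13 to 0.0395 for Fcgr4 and -0.38 to 0.16 for Fcgr2b in the difference of GW3965 responses. The cause was not tested.

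The replicate block brought Fcgr2b with SGC0946 in unstimulated cells past the threshold (0.39, adjusted p = 0.0330 in edgeR's test) and changed no other call of the 5 genes. Calls of Src and Clec4d in unstimulated cells held under all alternatives run. Each of the 5 genes had at least 679 counts in every library.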
